A study of Mus musculus with 2 samples.

Results

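Cell cycle regulators were followed here through a whole-genome bisulfite comparison of sorted mouse pancreatic cells. The genes are 40 fixed symbols: 9 cyclins, 5 cyclin-dependent kinases, 7 kinase inhibitors, 11 genes of the Rb and E2f families, the 3 Cdc25 phosphatases with the kinase Wee1, and the Myc family with Trp53. Each symbol was looked up, ignoring case, among the 3659 names in the authors' deposited table. That table names the genes nearest to regions whose methylation differed, in a higher list (3230 names, more methylated in null cells) and a lower list (429 names, less methylated in null cells). Of the 40 regulators, 8 were in the higher list, 0 in the lower list and 32 in neither.

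The cells came from the E14.5 pancreas and were sorted for eGFP carried at the locus of Ngn3 (current symbol Neurog3), the transcription factor that starts endocrine differentiation. The heterozygous group has 1 library and carries the reporter on one allele (Ngn3eGFP/+). The null group has 1 library and carries it on both alleles (Ngn3eGFP/eGFP). Both share the sort, the age, the reporter and a mixed background that is over 95% ICR, while how many pancreata went into each library was not stated. The labels name islet progenitors for the heterozygous library and endocrine progenitors for the null one, so genotype and stage of the sorted cells cannot be told apart. With 1 library per genotype nothing below could be checked against replicates, and p-values were not computed. The table holds names and no methylation level, coverage or position, so the labelled cell type could not be checked against markers. A name in it says that a region lay nearest to that gene, not that the region lay inside the gene or that its expression changed.

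In the cell cycle, D-type cyclins with Cdk4 or Cdk6 start the phosphorylation of the Rb pocket proteins in G1. Phosphorylated pocket proteins release E2F factors, which switch on genes of DNA replication; Ink4 inhibitors block Cdk4 and Cdk6, and Cip/Kip inhibitors block a wider range of cyclin and kinase pairs. In the pancreas, cells with high Neurog3 leave the cycle as they commit to the endocrine fate, and in the mouse Cdk4 and the D2 cyclin are known for their role in the later growth of beta cells. The comparison bears on which of these genes were nearest to regions whose methylation differed between the null and the heterozygous library.

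Promoter sequences show how unevenly CpG, the site of most DNA methylation in mammals, is spread over the named regulators. The following 4 are those named regulators whose RefSeq promoter window is placed on the outermost annotated start of the gene. Each line gives the 250 bases before that start in GRCm38.p6, 5′ to 3′ on the strand of the gene, with CpG in capitals. They lie at chr10:69352913-69353162 (minus strand), chr4:89311033-89311282 (minus strand), chr2:157204535-157204784 (minus strand) and chr8:91069807-91070056 (plus strand).
Cdk1: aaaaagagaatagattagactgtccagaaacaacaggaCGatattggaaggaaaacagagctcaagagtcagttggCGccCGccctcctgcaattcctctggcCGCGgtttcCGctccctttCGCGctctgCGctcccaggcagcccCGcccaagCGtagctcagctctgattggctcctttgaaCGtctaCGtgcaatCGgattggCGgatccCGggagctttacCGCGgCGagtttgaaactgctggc
Cdkn2b: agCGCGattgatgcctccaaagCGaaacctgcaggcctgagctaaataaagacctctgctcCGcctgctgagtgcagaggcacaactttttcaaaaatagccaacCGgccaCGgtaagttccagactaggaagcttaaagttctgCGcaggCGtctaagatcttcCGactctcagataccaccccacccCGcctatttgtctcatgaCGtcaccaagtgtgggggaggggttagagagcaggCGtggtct
Rbl1: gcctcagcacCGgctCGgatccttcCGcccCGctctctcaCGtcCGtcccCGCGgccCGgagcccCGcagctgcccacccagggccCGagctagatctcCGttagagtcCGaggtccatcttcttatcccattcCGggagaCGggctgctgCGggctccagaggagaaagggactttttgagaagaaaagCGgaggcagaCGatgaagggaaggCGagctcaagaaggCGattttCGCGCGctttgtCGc
Rbl2: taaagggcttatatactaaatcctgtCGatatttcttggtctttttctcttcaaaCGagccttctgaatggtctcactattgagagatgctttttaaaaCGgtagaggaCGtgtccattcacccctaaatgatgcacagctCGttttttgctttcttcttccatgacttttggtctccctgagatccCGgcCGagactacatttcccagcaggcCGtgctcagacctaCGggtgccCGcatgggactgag
The stretch of Rbl1 holds 24 CpG and that of Cdk1 holds 19. Cdkn2b has 12 and Rbl2 has 10, fewer than either. The table does not say whether any differing region overlaps these stretches.

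Regulators were in the higher list at 20% (8 of 40). The background was 11.8% of all protein-coding genes (2580 of 21887), at which 40 genes would give 4.72. Weighting that background by the length of the regulators gave 4.34 genes. In the lower list the background was 1.34% (293 of 21887), at which 40 genes would give 0.535, so a count of 0 there says little. No test was made of these shares, and the 40 were not drawn at random.

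**Figure D1:**
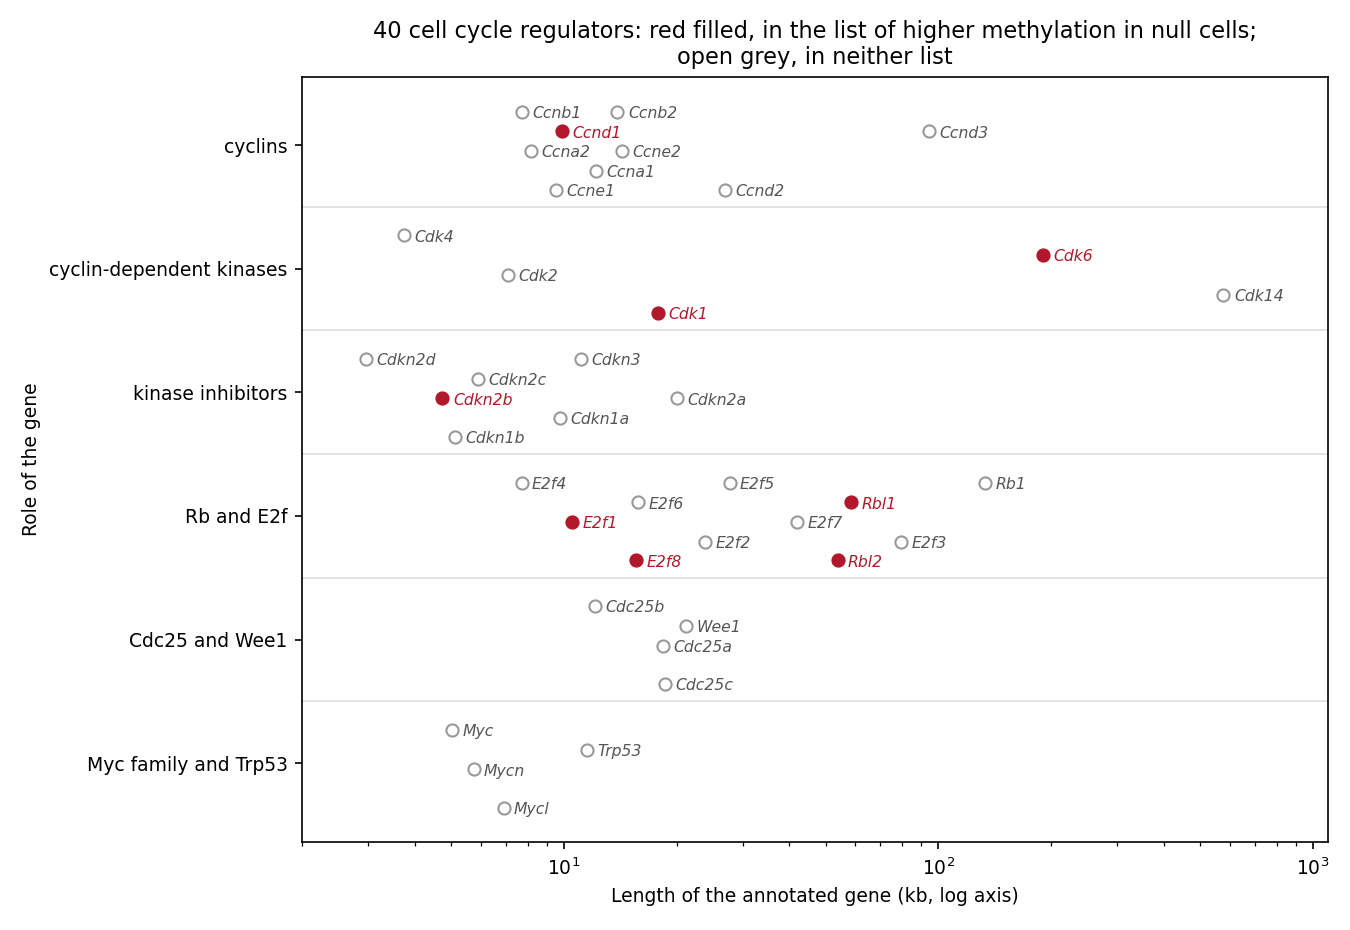
The 40 cell cycle regulators by role (rows) and by length of the annotated gene in kb (log axis), with genes of the higher list as filled red points and genes in neither list as open grey points. The 8 named genes run from Cdkn2b at 4.74 kb to Cdk6 at 190 kb, and the longest regulator, Cdk14 at 577 kb, is in neither list.

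Among the cyclins, 1 of 9 was in the higher list (11.1%, about the background). It was Ccnd1 (chromosome 7, 144929931 to 144939831 in GRCm38, 9.90 kb), the D1 cyclin, which links growth signals to entry into the cycle. Its paralogs Ccnd2 (27.0 kb) and Ccnd3 (94.6 kb) were in neither list, although Ccnd3 is the longest of the 9. The 6 cyclins of later phases were also in neither: Ccne1 and Ccne2, which act at the G1 to S transition, Ccna2, which acts in S phase and G2, its germline paralog Ccna1, and the mitotic cyclins Ccnb1 and Ccnb2.

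Of the cyclin-dependent kinases, 2 of 5 were in the higher list (40%, against 11.8% of all protein-coding genes). Cdk6 (chromosome 5, 3341004 to 3531008, 190 kb) is a partner of the D cyclins, and Cdk1 (chromosome 10, 69335146 to 69352912, 17.8 kb) drives entry into mitosis. Cdk4 (3.75 kb), the other partner of the D cyclins, was in neither list, as were Cdk2 (7.11 kb), which acts with cyclins E and A, and Cdk14 (577 kb), a kinase that pairs with cyclin Y. Cdk6 falls in the longest decile of protein-coding genes, where 37.6% were in the higher list. Cdk1 falls in the sixth, where 7.90% were.

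Of the inhibitors, 1 of 7 was in the higher list (14.3%, against 11.8% of all protein-coding genes). It was Cdkn2b (chromosome 4, 89306289 to 89311032, 4.74 kb), which encodes the Ink4 inhibitor p15 and was the shortest of the 8 named regulators. Its neighbour Cdkn2a, 11.7 kb away, encodes p16Ink4a and p19Arf and was in neither list. Cdkn2c and Cdkn2d, the remaining Ink4 genes, were in neither. The same held for the Cip/Kip genes Cdkn1a (p21) and Cdkn1b (p27), and for Cdkn3, a phosphatase of cyclin-dependent kinases. The long noncoding RNA gene Gm12610 (chromosome 4, 89295180 to 89518621) overlaps Cdkn2b, starts 0.560 kb from Cdkn2a, and was in the higher list too. Whether Cdkn2b and Gm12610 were named for the same region cannot be told from names. The third Cip/Kip gene, the imprinted Cdkn1c (chromosome 7, 143458339 to 143461059), is not among the 40; it was in the higher list and lies 1.47 Mb from Ccnd1.

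The Rb and E2f families gave 4 of the 8 named genes, from 11 members (36.4%, against 11.8% of all protein-coding genes). In the length deciles of these 4, the share of all genes in the higher list was 20.7% for Rbl1 and 13.5% for Rbl2. It was 7.45% for E2f1 and 7.99% for E2f8. The difference was not tested. Of the 3 pocket proteins, Rbl1 (p107; chromosome 2, 157145893 to 157204534, 58.6 kb) and Rbl2 (p130; chromosome 8, 91070057 to 91123844, 53.8 kb) were in the higher list. Both bind the repressor E2F factors, and Rbl2 is the pocket protein typical of resting cells. Rb1, the retinoblastoma gene, is the longest of the 3 at 133 kb and was in neither list. Of the 8 E2f genes, E2f1 (chromosome 2, 154559400 to 154569892, 10.5 kb), an activator, and E2f8 (chromosome 7, 48866429 to 48882073, 15.6 kb), an atypical repressor, were in the higher list. The activators E2f2 and E2f3, the repressors E2f4, E2f5 and E2f6 and the atypical E2f7 were in neither. E2f1 and Rbl1 lie on the same chromosome, 2.58 Mb apart.

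The remaining 8 regulators were in neither list. They were Cdc25a, Cdc25b and Cdc25c, phosphatases that activate the cyclin-dependent kinases; Wee1, the kinase that opposes them; the growth-promoting factor genes Myc, Mycn and Mycl; and Trp53, which encodes p53. At 5.02 to 21.2 kb, all 8 are short to middling in length.

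Set out along the G1 part of the pathway, the higher list held 1 of 3 D cyclins, 1 of 2 of Cdk4 and Cdk6, 1 of 4 Ink4 inhibitors, 2 of 3 pocket proteins and 2 of 8 E2f genes. It held 0 of the 2 Cip/Kip inhibitors among the regulators and 0 of the 3 genes Ccne1, Ccne2 and Cdk2. Cdkn1c, the Cip/Kip gene outside the regulators, was in the higher list. Over all protein-coding genes the share was 11.8%, and in the longest decile, which holds Cdk6 and Rb1, it was 37.6%. These small groups were drawn after the table had been seen and get no test.

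**Figure D2:**
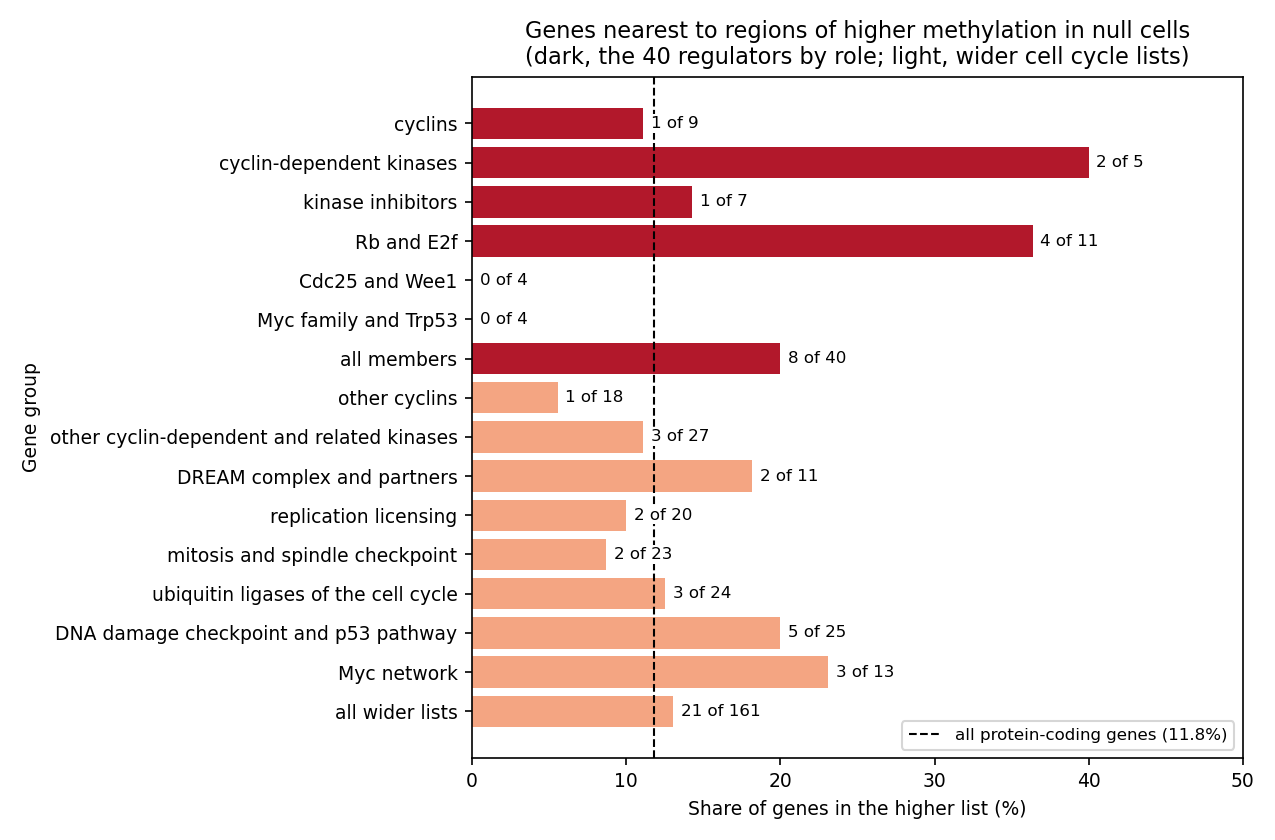
Percent of each gene group in the higher list, with the count beside each bar; dark bars are the 40 regulators by role, light bars are wider cell cycle lists, and the dashed line is the 11.8% of all protein-coding genes. The kinases (2 of 5) and the Rb and E2f families (4 of 11) have the longest bars, while all wider lists together stand at 13.0%.

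Longer genes were named more often, so the regulators were read beside all genes of the shorter and of the longer deciles. The 8 named regulators had a median length of 16.7 kb, the 32 others 12.1 kb and all protein-coding genes 17.2 kb. In the 5 shorter deciles, up to 17.2 kb, 4 of 24 regulators were in the higher list (16.7%) against 5.70% of all genes there. In the 5 longer deciles it was 4 of 16 (25%) against 17.9%. The short ones were Ccnd1, Cdkn2b, E2f1 and E2f8. The bins are coarse and do not match lengths within them. They also leave out the space around a gene, which matters where the nearest gene is named. The gaps to both neighbours together had a median of 39.4 kb over all protein-coding genes. For protein-coding genes in the higher list it was 83.3 kb. The regulators were not matched for this space. The shortest decile, at 1.83%, holds 0 regulators but counts in the 5.70%. These counts are too small for any single decile to be read alone.

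**Figure D3:**
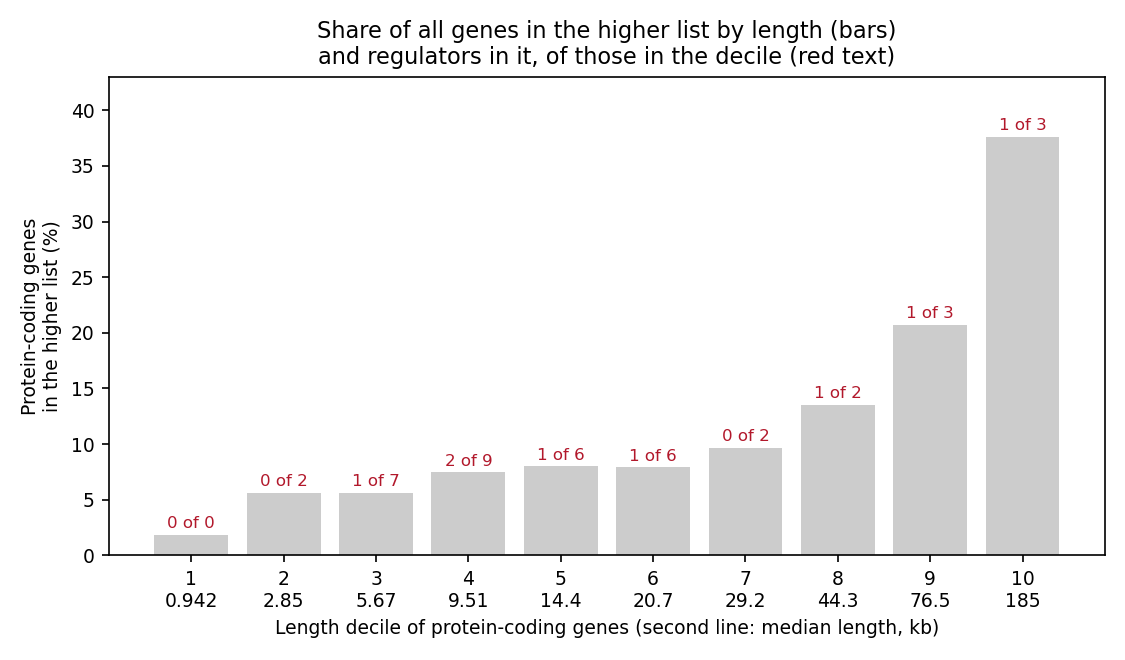
Percent of all protein-coding genes in the higher list in each decile of gene length (bars, with the median length of the decile in kb under its number) and, in red, how many of the regulators in that decile were in it. The bars rise from 1.83% in the shortest decile to 37.6% in the longest, and the 8 named regulators are spread over 7 of the 10 deciles.

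The surroundings of the 8 named regulators differed widely. Of the 12 other protein-coding genes within 500 kb of Ccnd1, 3 were in the higher list: Fgf3, Ano1 and Tpcn2. Fgf3, a fibroblast growth factor gene, was the nearest of them at 86.6 kb. LTO1, Fgf15 and Fgf4 lie closer to Ccnd1 and were in neither list. Rbl2 overlaps Aktip and lies 15.5 kb from Chd9, a chromatin remodeller gene, both in the higher list, with Fto beyond them in both lists. Cdk1 and E2f8 each had a very long neighbour in the higher list, Ank3 at 181 kb and Nav2 at 77.0 kb. Rbl1 had Sla2 on one side, 259 kb away, and the imprinted gene Nnat on the other, both in the higher list, with Dlgap4 of the lower list farther out. E2f1 had Raly, 221 kb away, and Ahcy on the same side, both in the higher list. Mrgprb8, on the other side of E2f8 from Nav2, was in both lists. Cdk6 and Cdkn2b had 0 other protein-coding genes of the higher list within 500 kb. The nearest other gene of the higher list, of any class, to Cdk6 was 2210 kb away, the largest such distance among the 8. Genes of the lower list were not searched for this distance. Cdk6 starts at position 3341004 of chromosome 5. Over all 8 windows of 500 kb on each side, 13 of 88 other protein-coding genes were in the higher list (14.8%, against 11.8% of all protein-coding genes). The 11.8% is not a like reference for windows around genes of the higher list. Of all such genes 50.7% had an adjacent gene in that list, against 21.2% of all protein-coding genes. In the lower list there were 3 of 88 (3.41%, against a background of 1.34%), namely Dlgap4, Fto and Mrgprb8.

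**Figure D4:**
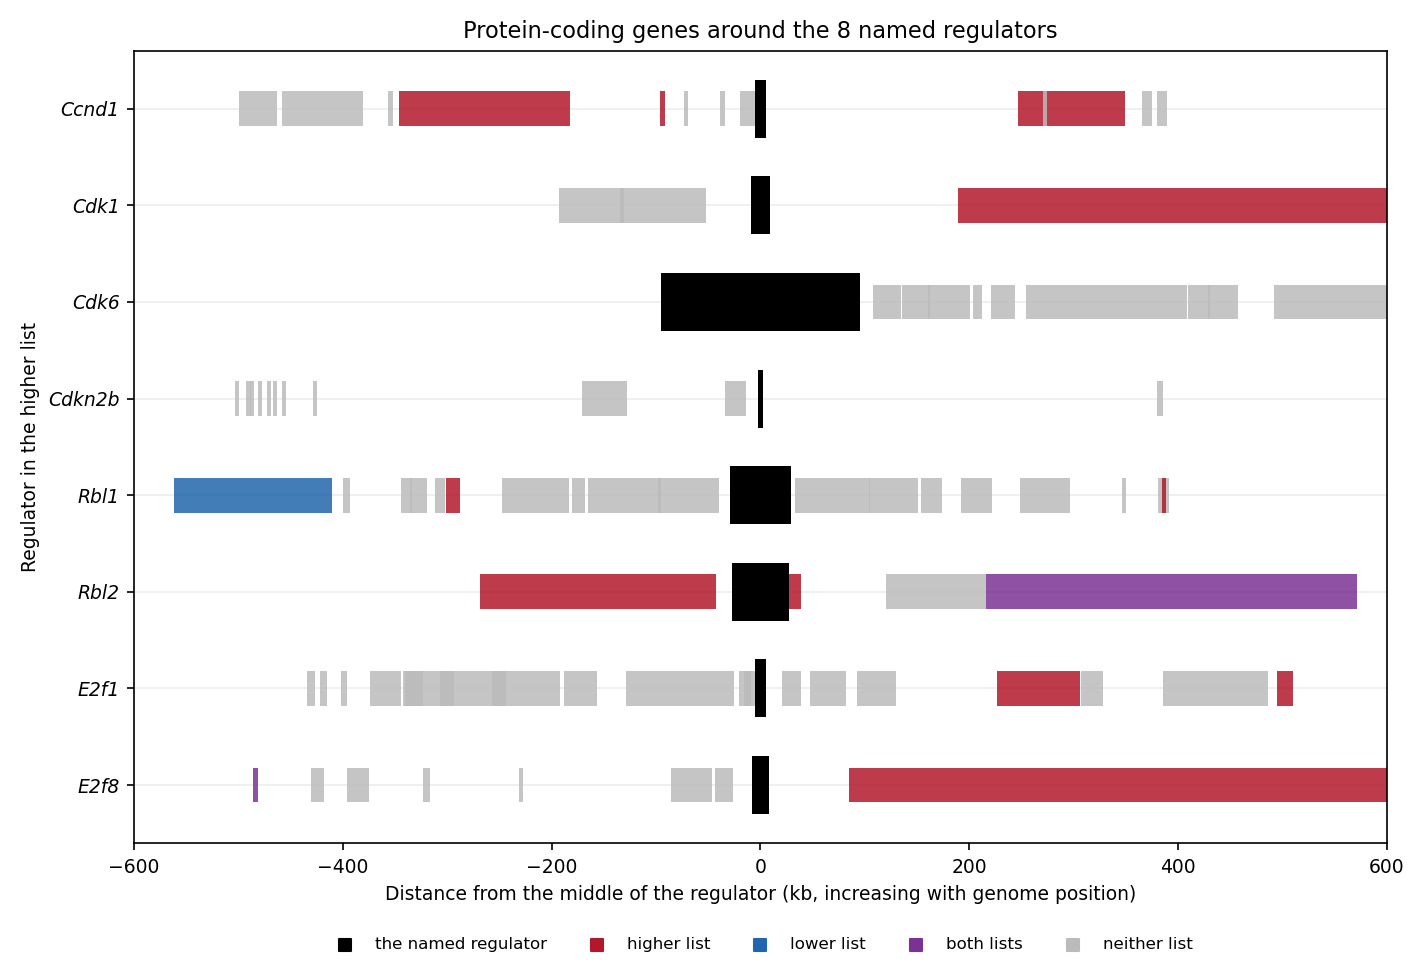
Protein-coding genes within 500 kb of each of the 8 named regulators, placed by distance in kb from the middle of the regulator (black) and coloured by list; genes reaching past the edge are cut there. Genes of the higher list (red, or purple where in both lists) lie on both sides of Ccnd1, Rbl1, Rbl2 and E2f8 and on one side of Cdk1 and E2f1, while Cdk6 and Cdkn2b have grey genes alone.

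Several regulators in neither list sit beside a gene that was named. Of the 32, 10 had an adjacent protein-coding gene in the higher list (31.2%), against 17.3% of all protein-coding genes outside that list. Of the 8 named regulators 4 had one (50%), against 50.7% of all protein-coding genes in the higher list. Among the 10, Cdkn2a counts only through Cdkn2b, itself a regulator in the higher list. Wrap53 (chromosome 11, 69561754 to 69580250), the antisense partner of the p53 gene, was in the higher list and ends 0.0970 kb from Trp53. Cdkal1, a gene of tRNA modification, was in the higher list and lies 50.9 kb from E2f3. Cdkn2c lies 9.87 kb from Faf1, E2f2 10.3 kb from Asap3, and Cdkn1a 13.4 kb from Rab44, each of these neighbours being in the higher list. Ccnb1, Ccnd2, Cdkn1b, Cdkn2a and Cdkn3 are the others. Pvt1 (chromosome 15, 62037986 to 62260215), the long noncoding RNA gene 47.6 kb from Myc, was in both lists. In the lower list the adjacent genes were Greb1 beside E2f6, Nav3 beside E2f7 and Parp11 beside Ccnd2, which is 3 of 32 (9.38%) against 2.32% of genes outside the higher list. A region between a regulator and such a neighbour is credited to one of them by a distance rule that was not stated.

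Promoter windows (250 bases before to 50 after an annotated start) were matched for 30 of the 40 regulators, in 36 windows, and for 7 of the 8 named ones. The ratio of observed to expected CpG had a median of 0.946 in the 7 windows of named regulators (0.722 to 1.08), 0.797 in the 29 windows of the others (0.0892 to 1.15) and 0.567 in 21255 windows of all protein-coding genes. The range of the named regulators lies inside that of the others, and both lie mostly above the median of all genes. Cdkn2b and Rbl2 had the lowest ratios of the named ones, at 0.722 and 0.727. The windows of E2f1, E2f8 and Cdk6 belong to starts that lie 466, 477 and 2889 bases inside the gene. Without these 3 the median of the named ones was 0.836. Windows at inner starts were kept among the others, such as those of Ccnd3 (88416 bases), Cdkn2a (12427) and E2f2 (8508). The 0.836 therefore has no like counterpart in the 0.797, and no order of named and other regulators is to be read from these medians.

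**Figure D5:**
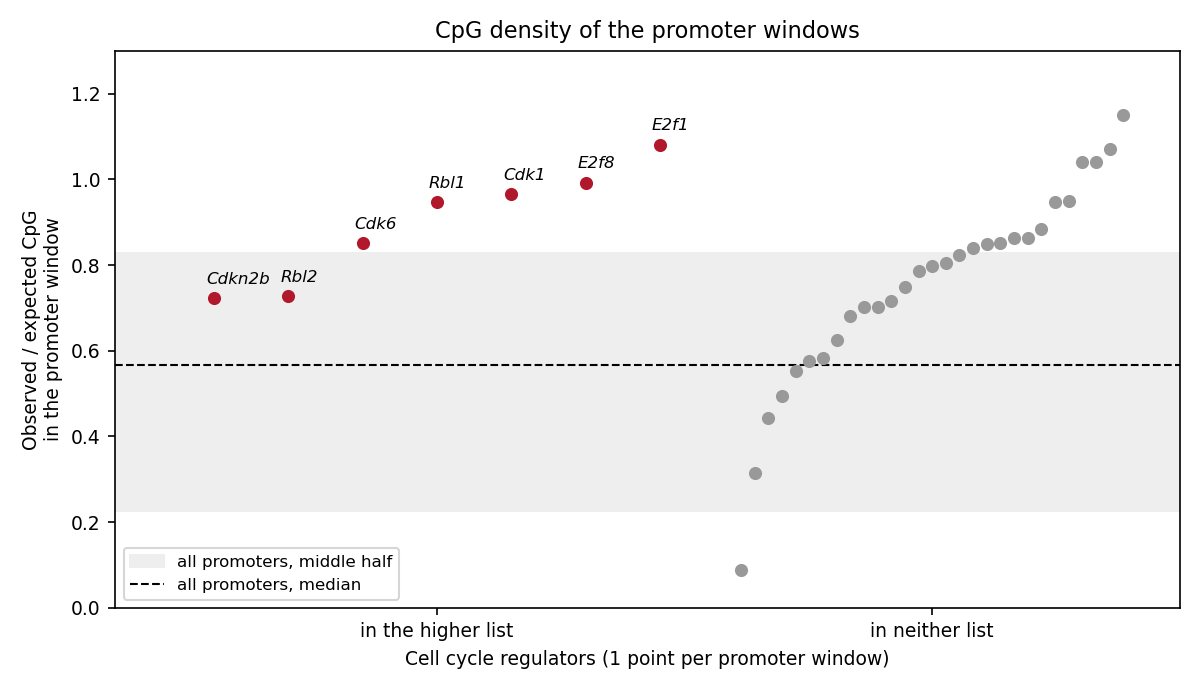
Ratio of observed to expected CpG in each promoter window of the regulators in the higher list (red, 7 windows) and in neither list (grey, 29 windows); the dashed line and the shaded band are the median (0.567) and the middle 50% (0.226 to 0.827) of all protein-coding promoter windows. All 7 red points lie above the dashed line, as do most grey points.

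Motifs of cell cycle control were searched on both strands of these windows, with no mismatch allowed. An E2F motif (TTTCCCGC, TTTCGCGC, TTTGCCGC or TTTGGCGC, each of which holds a CpG) was in 9 of 36 windows of regulators (25%) and in 2.86% of all windows. It was in 2 of the 7 named windows (28.6%) and in 7 of the 29 others (24.1%). Windows of regulators held a median of 23.5 CpG, against 13 in all windows. The share of all windows is therefore not a like reference for motifs that hold a CpG. The named windows with the E2F motif were those of Cdk1 and Rbl1. In these it starts 131 and 18 bases before the start of the gene, respectively. The CHR motif (TTTGAA), known from promoters of genes used in G2 and mitosis, was in 4 of the 7 named windows, 5 of the 29 others and 16.0% of all. Besides Cdk1, the motif was in the windows of Cdkn2b, Rbl2 and E2f8, at 161, 201 and 20 bases before the annotated start. The stretch of Cdk1 printed above holds it at 71 and at 15 bases before the start, together with the CCAAT motif at 208, 80 and 48 bases. CCAAT was in 2 of the 7 named windows (28.6%), in 58.6% of the windows of the other regulators and in 38.2% of all. The CACGTG motif of the Myc family was in 1 named window, that of Cdk6, and in 7.84% of all windows. A match describes letters in a window and not binding, and no methylation value is known for any of them.

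Genes that work with these regulators were named about as often as any gene. Of 161 genes in 8 wider lists, 21 were in the higher list (13.0%, against 11.8% of all protein-coding genes) and 1 in the lower list. Among the other cyclins 1 of 18 was named (5.56%), Ccnjl, a cyclin J paralog. The list of other cyclin-dependent and related kinases also holds some genes that do not encode kinases. Of its 27 genes 3 were named (11.1%): Cdk8, a kinase of the Mediator complex, the kinase gene Cdk15, and Cdk5rap3, which is not a kinase gene. Of the DREAM complex, which holds the pocket proteins and represses cell cycle genes in resting cells, and its partners, 2 of 11 were named (18.2%). They were Tfdp1 (39.7 kb), the dimer partner of the E2F factors, and Dyrk1a (126 kb), a kinase that promotes DREAM assembly.

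Replication licensing gave 2 of 20, Cdc6, a loader of the replicative helicase, and Gmnn, which encodes geminin, an inhibitor of licensing. None of the 6 genes Mcm2 to Mcm7 was among them, but 6 genes are too few to read an absence from. Mitosis and spindle checkpoint genes gave 2 of 23 (8.7%, against the same 11.8%). They were Incenp of the chromosomal passenger complex and Plk2 (chromosome 13, 110395044 to 110400844, 5.80 kb), a polo-like kinase. Plk2 was also the 1 gene of all 161 in the lower list, so it lay nearest to regions of both kinds. The ubiquitin ligases gave 3 of 24 (12.5%), Cdc26 of the anaphase-promoting complex and the F-box genes Fbxw7 (164 kb) and Fbxw11 (104 kb). Fbxw7 directs the breakdown of cyclin E and Myc, neither of whose genes was named.

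The DNA damage checkpoint and p53 pathway gave 5 of 25 (20%, against 11.8% of all protein-coding genes): Trp53bp2, Trp63, Btg1, Bbc3 and Zmat3. Bbc3 encodes Puma, a p53 target that promotes apoptosis, and Btg1 restrains proliferation. The Myc network gave 3 of 13 (23.1%, against the same 11.8%): Max, the dimer partner of Myc, and Mxd4 and Mxi1, which compete with Myc for Max. The 3 Myc genes themselves were in neither list. With lists of 11 to 27 genes, 1 gene more or fewer moves a share by several percentage points, and none of these shares was tested.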

How the data were processed

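Genomic DNA of 1 library per genotype was tagmented, bisulfite-converted and sequenced paired-end with 150 bp reads to roughly 400000000 reads a library, per the labels' protocols. Trim Galore and the builds mm10 and GRCm38 are named in the submitters' processing notes; for the aligner, region caller, thresholds, coverage minimum and nearest-gene rule, nothing was given in the sources used here. From the authors came 1 deposited table of 9 columns, which holds gene names and no other measured values. Its unit is therefore none. Per the file headers, column 1 is the lower list and column 2 starts the higher list; the 7 columns without a header carry on its alphabetical order. Depth behind each region is unknown.

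Names were matched ignoring case to current symbols and NCBI gene IDs of RefSeq GRCm38.p6 (49997 genes, of which 21887 protein-coding ones on the autosomes, X and Y gave the background), with pandas 2.3.3. All 40 regulators matched the annotation. Skp1a of the wider lists matched by its older symbol (Skp1). Neighbours are the previous and next protein-coding gene by start. Gaps are between annotated ends. Promoter sequences are from RefSeq, GRCm38.p6. The lookup was tested on simulated data. No statistical test was made.

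All regulators are accounted for; of the wider lists, every gene of the lower list and up to 8 of the higher list per list were named. The regulators, lists and this rule were chosen with earlier results of these data known. Alternatives were older symbols, column 2 alone, autosomes only, genes in both lists left out, other backgrounds and genes over 200 kb left out.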

Additional observations from a re-analysis of the deposited data

How the results depend on the processing

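The count of 8 regulators in the higher list, and of 0 in the lower, was the same with older symbols matched, with autosomes only and with genes in both lists left out. With column 2 alone, the 1 higher column with a header, it was 0, by construction, since that column ends in names that begin with A. The background of the higher list (11.8%) was 6.14% over all annotated genes, 12.3% on autosomes and 10.9% weighted by the length deciles of the regulators; that of the lower list (1.34%) was 0.724% over all annotated genes, 1.18% weighted by length, and 1.51% with older symbols matched, an alternative chosen after seeing the data. The 21 wider genes in the higher list became 20 without genes over 200 kb, which drops Trp63, and stayed at 21 with older symbols. No paired analysis was possible because there is 1 library of each kind. The methylation caller's thresholds could not be varied, and at a background of 1.34% no list here could show a modest excess in the lower list.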

Other observations

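Other genes of the higher list have roles in or names from the cell cycle but belong to none of the lists; they were chosen after their presence was seen. Cdca7l (chromosome 12, 117843475 to 117878712, 35.2 kb), whose family member Cdca7 acts in the maintenance of DNA methylation, was in the higher list. Cdkn2aip (chromosome 8, 47709344 to 47713931, 4.59 kb), which encodes a binding partner of the Arf product of Cdkn2a, was there too, while Cdkn2a was in neither list.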
